A study of Homo sapiens with 8 samples.

Results

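The genes described here are BANF1, the 3 nuclear lamin genes LMNA, LMNB1 and LMNB2, 4 genes of LEM-domain proteins (EMD, LEMD2, LEMD3 and TMPO), and the inner nuclear membrane genes LBR and SUN2. They are 10 of the 57905 genes in the deposited table, matched to it by gene symbol, and all 10 passed the filters on low counts. BANF1 was picked because it rose with YAP1 siRNA, so its value in that contrast is a description with no test; the other 9 were taken as its binding partners and neighbours at the nuclear envelope. The study sequenced RNA from 2 human prostate cancer lines, in 8 libraries. EnzaR cells, labelled enzalutamide-resistant and grown in 10 uM enzalutamide (an androgen receptor blocker), received 40 nM control siRNA (siNC, 2 libraries) or YAP1 siRNA (siYAP1, 2 libraries) for 48 h. LNCaP cells, an established androgen-sensitive line labelled enzalutamide-sensitive and grown without the drug, were kept for 48 h with vehicle (control) or with extracellular vesicles (EVs) from EnzaR cells. Those donor EnzaR cells carried control siRNA (EV-siNC), YAP1 siRNA (EV-siYAP1) or siRNA against COUP-TFII (EV-siCII), with 1 LNCaP library each. The line from which EnzaR cells were derived is not given in the sources used here.

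BANF1 encodes barrier-to-autointegration factor, a small protein that dimerises, binds DNA without sequence preference and bridges chromatin, so that a dividing cell rebuilds a single nucleus. BAF binds the LEM domain of emerin (EMD), LEMD2, MAN1 (LEMD3) and the LAP2 proteins (TMPO), which sit in or near the inner nuclear membrane, and it also binds A-type lamin. A-type lamins (LMNA) and B-type lamins (LMNB1, LMNB2) form the meshwork under that membrane, LBR tethers heterochromatin and B-type lamin to it, and SUN2 links it through nesprins to the cytoskeleton.

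The stretches before the start sites of 4 members are shown because BANF1 is the member that chose this set, and LMNB1, TMPO and LBR are the members that differed most between the lines below. They are the 250 bases before the start site, from RefSeq on GRCh38.p14, 5′ to 3′ on the gene's own strand, at chr11:66002253-66002502 (BANF1, plus strand), chr5:126776886-126777135 (LMNB1, plus strand, the second of its RefSeq windows), chr12:98515323-98515572 (TMPO, plus strand, the first of its windows) and chr1:225428822-225429071 (LBR, minus strand). Capitals mark matches to 6 searched words, read on both strands.
BANF1: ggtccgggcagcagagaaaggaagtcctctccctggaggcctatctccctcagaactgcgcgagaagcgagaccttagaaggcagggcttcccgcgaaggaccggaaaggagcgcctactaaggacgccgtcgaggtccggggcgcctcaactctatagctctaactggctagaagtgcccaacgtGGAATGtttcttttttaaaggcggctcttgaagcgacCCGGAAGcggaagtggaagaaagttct
LMNB1: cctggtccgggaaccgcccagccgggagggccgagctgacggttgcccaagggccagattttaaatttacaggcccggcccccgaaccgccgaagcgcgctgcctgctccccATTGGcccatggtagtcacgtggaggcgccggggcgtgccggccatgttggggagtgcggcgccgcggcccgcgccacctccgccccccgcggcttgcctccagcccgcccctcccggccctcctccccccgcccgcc
TMPO: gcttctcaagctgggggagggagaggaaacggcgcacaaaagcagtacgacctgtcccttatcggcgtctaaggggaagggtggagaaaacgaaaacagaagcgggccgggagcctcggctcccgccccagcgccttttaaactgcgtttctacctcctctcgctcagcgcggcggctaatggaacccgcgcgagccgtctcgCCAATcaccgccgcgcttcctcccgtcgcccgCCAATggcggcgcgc
LBR: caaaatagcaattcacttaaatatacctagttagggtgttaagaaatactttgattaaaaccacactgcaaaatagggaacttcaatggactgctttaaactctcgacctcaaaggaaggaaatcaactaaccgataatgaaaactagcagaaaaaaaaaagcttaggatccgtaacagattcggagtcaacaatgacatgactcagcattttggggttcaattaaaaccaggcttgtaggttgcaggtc
The words were GGAATG (the core that TEAD factors, the DNA-binding partners of YAP1, recognise), CCGGAAG (ETS factors), CCAAT (the CCAAT box), TTTGAA (the cell cycle homology region) and the E2F words TTTCCCGC and TTTGGCGC. The BANF1 stretch held GGAATG 64 bases and CCGGAAG 27 bases before the start site. Over the 35116 RefSeq windows of 300 bases (250 before to 50 after a start site), 14% held GGAATG and 10.3% held CCGGAAG. TMPO held CCAAT at 15 and 47 bases, and LMNB1 held it on the opposite strand at 138 bases, against 34.6% of windows with that word. The other RefSeq window of LMNB1 held no match to any of the words. No word matched in the LBR window, whose GC content was 38.3% against 58.7% for BANF1, 73.7% for LMNB1 and 65.0% for TMPO. The whole TMPO and LMNB1 windows held none of the other words, which were present in 15.2% (TTTGAA), 1.63% (TTTCCCGC) and 0.652% (TTTGGCGC) of windows. Among members not printed here, TTTCCCGC lay 23 bases before a start site of LMNA and 134 bases before that of LEMD3. TTTGAA lay at 246 bases in LMNB2 and, on the opposite strand, at 111 bases in SUN2. CCAAT lay at 115 and 224 bases in EMD, at 57 and 101 bases in SUN2 and at 146 bases in LMNA. On the opposite strand, CCAAT lay at 100 bases in LEMD3, and CCGGAAG at 27 bases in LEMD3 and 93 bases in LMNB2. These are matches of letters, not sites shown to be bound.

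Total counts were between 16682669 and 18248939 per library, which puts 3 counts at 0.164 to 0.18 CPM (counts scaled to a common depth). CPM values below are scaled by the trimmed mean of M-values (TMM) over all 8 libraries, and intervals from single libraries cover counting error only. YAP1, the targeted gene, read 59.5 and 49.1 CPM in the siNC libraries and 6.12 and 7.44 in the siYAP1 libraries, as the labels say. All 9 luminal prostate markers were detected in all 8 libraries, with sums of 4189 to 4651 CPM in EnzaR and 3071 to 3441 CPM in LNCaP. These sums hide markers that differ in opposite directions. In EnzaR siNC against LNCaP control 5 of the 9 were called higher and 3 lower, where 29.8% and 28.6% of all genes were. KLK3 read 1183 CPM in EnzaR siNC (mean) and 47.3 CPM in LNCaP control, and KRT8 read 687 and 1320 CPM. Of 9 measured markers of other cells or lines, summed 34.9 to 45.2 CPM in EnzaR and 399 to 408 CPM in LNCaP, the leukocyte gene PTPRC was at 0 everywhere and VIM carried most of the gap. No replicate pair agreed within sampling noise (chi-square per degree of freedom of 8.73 for siNC and 10.1 for siYAP1), so each library was counted once.

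In EnzaR cells BANF1 stood at 2.04 times its control level with YAP1 siRNA, and none of the other 9 members passed the test. BANF1 (ENSG00000175334, chr11:65769550-65771620 on hg19, plus strand) read 125 and 129 CPM with siNC and 293 and 235 CPM with siYAP1. The 2 siYAP1 libraries were both above the siNC pair and differed from each other more than the siNC libraries did. The means were 264 ± 40.9 and 127 ± 2.56 CPM (SD, n = 2 each), a fitted log2 fold change of 1.03 (standard error 0.11), or 2.04-fold. Since BANF1 was chosen on this contrast, no p is given. In the LNCaP libraries BANF1 lay between the EnzaR groups, at 182 CPM in control, 157 with EV-siNC, 159 with EV-siYAP1 and 169 with EV-siCII. The raw counts behind these values were 2284 to 4354 per library. The 5 BANF1 pseudogenes together held 5 to 16 counts per library, so reads assigned to these copies were few beside those of the parent gene. The submitters' counting strand is not given, and BANF1 and the opposite-strand gene EIF1AD overlap by 98 bases in the deposited table, so reads in that stretch cannot be told apart.

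**Figure D1:**
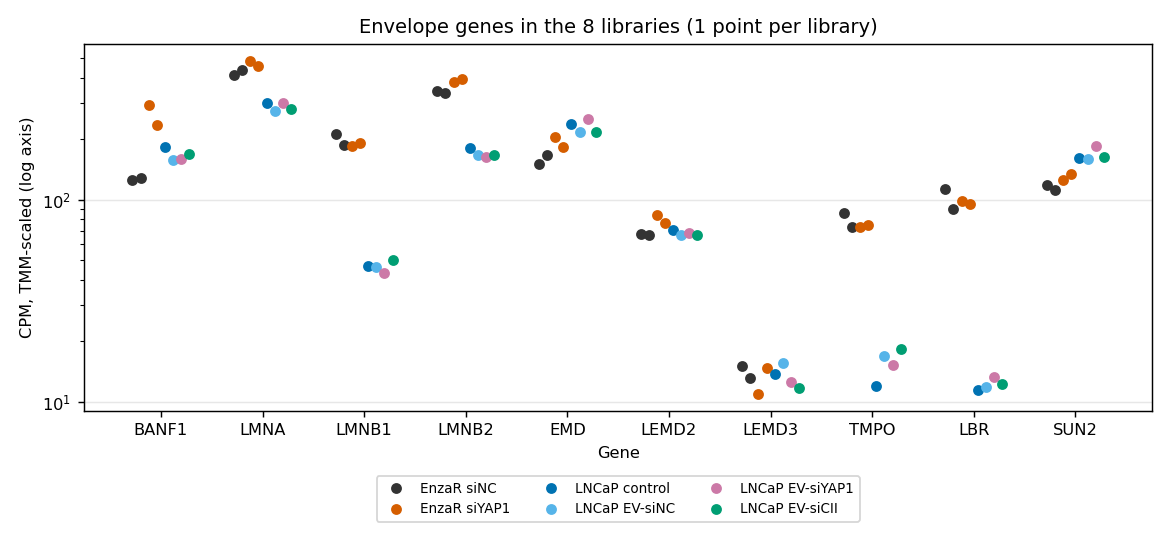
Level of each of the 10 envelope genes in each of the 8 libraries, in TMM-scaled CPM on a log axis, with 1 point per library coloured by group. BANF1 is at 293 and 235 CPM in the siYAP1 libraries against 125 and 129 CPM in the siNC libraries, while the LMNB1, TMPO and LBR points of the 4 EnzaR libraries all lie above those of the 4 LNCaP libraries.

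The genes beside BANF1 on chromosome 11 were measured too. EIF1AD, a translation initiation factor-like gene whose RefSeq start site lies 346 bases from that of BANF1 on the other strand, read 25.2 and 26.5 CPM with siNC and 33.5 and 29.4 CPM with siYAP1. Its groups did not overlap, and its log2 fold change of 0.25 (standard error 0.13) did not pass the test (edgeR adjusted p = 0.197). SART1, a splicing factor gene within 25 kb, rose from 104 ± 5.19 to 134 ± 10.1 CPM (SD, n = 2 each), a log2 fold change of 0.33 (edgeR adjusted p = 0.0347). That call for SART1 was lost with library totals alone, with the replicate block, after the GC and length correction, and without siNC replicate 1, siNC replicate 2 or siYAP1 replicate 1 (edgeR adjusted p between 0.0692 and 0.306 in these fits). The other neighbours, CST6, CATSPER1 and ENSG00000254867, had 0 to 4 counts per library.

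None of the other 9 members passed the threshold with YAP1 siRNA in EnzaR cells (edgeR quasi-likelihood test, Benjamini-Hochberg adjusted p under 0.05 over 14948 genes), where 12.1% of all genes tested did. At an unadjusted p under 0.05 there were 2, against 29.03% of all genes, and DESeq2 and limma-voom also called 0. The log2 fold changes were positive for 5 and negative for 4, with a median of 0.12 beside -0.03 over all genes. Whether replicates came from separate cultures is not stated in the labels, so each p here reflects library-to-library spread, which may be technical. In bulk RNA, fewer cells with a transcript and less of it per cell cannot be told apart.

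Among the lamins, LMNA (ENSG00000160789, chr1:156052364-156109880 on hg19), which encodes lamins A and C, read 416 and 437 CPM with siNC and 487 and 458 CPM with siYAP1. The groups did not overlap, yet the log2 fold change of 0.12 (standard error 0.09) did not pass the test (edgeR adjusted p = 0.424). LMNB2 (ENSG00000176619, chr19:2427636-2456994) read 344 and 338 CPM with siNC and 381 and 394 CPM with siYAP1, again without overlap (log2 fold change 0.15, standard error 0.09, edgeR adjusted p = 0.276). LMNB1 (ENSG00000113368, chr5:126112315-126172712), the B-type lamin gene whose transcript is known to follow cell proliferation, read 210 and 186 CPM with siNC and 185 and 191 CPM with siYAP1. Its groups overlapped, with a log2 fold change of -0.10 (standard error 0.10, edgeR adjusted p = 0.503). The 2 siNC libraries of LMNB1 differed from each other by more than the group means did.

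Among the LEM-domain genes, EMD came nearest to the threshold. EMD (ENSG00000102119, chrX:153607557-153609883), which encodes emerin, read 151 and 165 CPM with siNC and 204 and 182 CPM with siYAP1, with both siYAP1 libraries higher. Its log2 fold change was 0.26 (standard error 0.10), with an unadjusted p of 0.0155 and an adjusted p of 0.0859 by edgeR. LEMD2 (ENSG00000161904, chr6:33738979-33756913), whose product helps seal the reforming envelope, read 67.4 and 67.2 CPM with siNC and 83.7 and 76.2 CPM with siYAP1. Its groups did not overlap either (log2 fold change 0.22, standard error 0.10, edgeR unadjusted p = 0.046, adjusted p = 0.164). TMPO (ENSG00000120802, chr12:98909290-98944157) read 85.5 and 73.4 CPM with siNC and 73.4 and 74.6 CPM with siYAP1. LEMD3 (ENSG00000174106, chr12:65563351-65642107) read 15.04 and 13.1 against 10.9 and 14.7 CPM. Both had overlapping groups and log2 fold changes below 0, of -0.13 (TMPO, edgeR adjusted p = 0.44) and -0.17 (LEMD3, edgeR adjusted p = 0.571). The reads of LEMD3 were the fewest of the members, and its standard error of 0.18 was the largest.

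Of the membrane-spanning members outside the LEM family, SUN2 (ENSG00000100242, chr22:39130730-39190148) read 118 and 112 CPM with siNC and 125 and 134 CPM with siYAP1. The groups did not overlap (log2 fold change 0.14, standard error 0.10, edgeR adjusted p = 0.344). LBR (ENSG00000143815, chr1:225589204-225616627) read 112 and 89.3 CPM with siNC and 98.9 and 94.6 CPM with siYAP1, with both siYAP1 values between the siNC pair (log2 fold change -0.09, standard error 0.11, edgeR adjusted p = 0.638). In all, LMNA, LMNB2, EMD, LEMD2 and SUN2 were the 5 tested members with both siYAP1 libraries above both siNC libraries, a pattern shared by 30.4% of all genes tested; 0 members had both below, where 28.3% of genes did. After a correction for GC content and exonic gene length within each library, the log2 fold changes of LEMD3, TMPO and LBR changed sign, to 0.04, 0.18 and 0.21, and BANF1 stood at 0.87. None of the 9 passed the threshold in that fit.

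**Figure D2:**
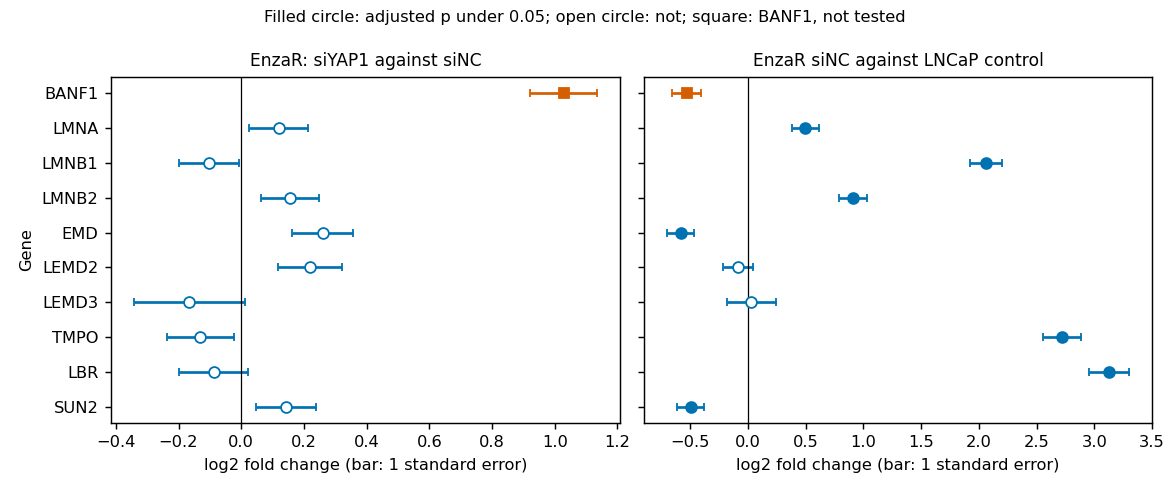
Log2 fold change of each envelope gene with its standard error (bar), for EnzaR siYAP1 against siNC on the left and EnzaR siNC against LNCaP control on the right; filled circles passed an adjusted p under 0.05 and BANF1 (square) was not tested. On the left BANF1 is at 1.03 and no circle is filled, and on the right LMNB1, TMPO and LBR lie between 2.06 and 3.13.

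In the length-scaled fragment values (FPKM) deposited by the authors, the YAP1 siRNA libraries had BANF1 as the most abundant member. The length used is the exonic length of the gene, not that of a transcript. The order of genes in FPKM, and ratios and shares between genes, depend on it. BANF1 stood at 77.1 ± 0.24 FPKM with siNC (SD, n = 2), beside EMD at 78.3 ± 3.78, and these neighbours in the order did not differ beyond their spread. With siYAP1, BANF1 stood at 146 ± 17.8 FPKM and EMD at 87.2 FPKM. LMNB2, LMNA and LMNB1 followed at 62.9, 61.1 and 54.6 FPKM with siNC, then LBR (19.2), SUN2 (17.7), LEMD2 (9.92), TMPO (9.26) and LEMD3 (2.54 FPKM). The ratio of BANF1 to the summed level of the 4 LEM-domain genes, both in FPKM, was 0.781 and 0.761 with siNC and 1.44 and 1.27 with siYAP1. In LNCaP that ratio was 0.697 to 0.85 in the 4 libraries. The summed LEM-domain level was 98.5 and 101.5 FPKM with siNC and 110.6 and 105.3 FPKM with siYAP1, so the ratio mostly restates the BANF1 values used to choose it.

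The lines were compared through EnzaR siNC against LNCaP control, with the spread taken from the EnzaR replicates because LNCaP control is 1 library. Line, enzalutamide, siRNA transfection and library are confounded in this comparison and cannot be told apart. LBR, TMPO and LMNB1 were several-fold higher in EnzaR, LMNA and LMNB2 were higher by less, and EMD and SUN2 were lower. Of the 9 tested members 5 were higher and 2 lower, where 58.4% of 17537 genes tested were called, 29.8% higher and 28.6% lower. Their median log2 fold change was 0.50, beside -0.002 over all genes. BANF1, for which siNC is the low arm of the contrast that chose it, had a log2 fold change of -0.53 (standard error 0.13), 1.44-fold lower in EnzaR siNC, given with no test.

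LBR, the lamin B receptor, showed the widest gap of the members. It read 89.3 to 112 CPM in the 4 EnzaR libraries and 11.5, 11.8, 13.2 and 12.2 CPM in LNCaP control, EV-siNC, EV-siYAP1 and EV-siCII. The groups were far apart, with a log2 fold change for siNC against control of 3.13 (standard error 0.18, 8.73-fold, edgeR adjusted p = 5.15e-14). TMPO read 73.4 to 85.5 CPM in EnzaR and 11.97, 16.8, 15.2 and 18.2 CPM in LNCaP, in the same order (log2 fold change 2.72, standard error 0.17, 6.59-fold, edgeR adjusted p = 2.96e-13). LMNB1 read 185 to 210 CPM in EnzaR and 47.1, 46.3, 43.2 and 49.98 CPM in LNCaP. Its log2 fold change was 2.06 (standard error 0.14, 4.18-fold, edgeR adjusted p = 1.50e-12). These 3 were the members without overlap whose mean over EnzaR libraries was more than 4 times that over LNCaP libraries (8.13, 4.94 and 4.14-fold), a pattern found in 4.19% of 10874 genes. The cut of 4 was not a planned setting and lies just under the lowest of the 3, so the 4.19% describes this choice and is no test.

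Proliferation genes moved with these members. All 12 on the list, MKI67 and CDK1 among them, were called higher in EnzaR siNC, where 29.8% of all genes were. The median log2 fold change of the 12 was 4.11. They summed to 2065 to 2183 CPM in EnzaR, against 163 to 217 CPM over LNCaP libraries. Their part in the values of LMNB1, TMPO and LBR was not tested. Markers of other cells or lines also differed, as given above, and their part was not tested either.

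LMNB2 read 338 to 394 CPM in EnzaR and 181, 166, 162 and 166 CPM in LNCaP control, EV-siNC, EV-siYAP1 and EV-siCII (log2 fold change 0.91, standard error 0.12, edgeR adjusted p = 3.00e-07). LMNA read 416 to 487 CPM in EnzaR and 300, 276, 302 and 279 CPM in LNCaP (log2 fold change 0.50, standard error 0.12, edgeR adjusted p = 6.73e-04). Neither gene's EnzaR libraries overlapped the LNCaP libraries. EMD went the other way, with 151 to 204 CPM in EnzaR and 235, 215, 251 and 216 CPM in LNCaP, a log2 fold change of -0.58 (standard error 0.12, edgeR adjusted p = 1.30e-04). SUN2 read 112 to 134 CPM in EnzaR and 161, 158, 184 and 162 CPM in LNCaP, a log2 fold change of -0.50 (standard error 0.12, edgeR adjusted p = 7.29e-04). Thus 5 members lay above and 2 below in every EnzaR library, where 40.1% and 30.3% of genes did. After the GC and length correction the call for EMD was lost (-0.23, edgeR adjusted p = 0.0519) and SUN2 changed sign without passing (0.16, edgeR adjusted p = 0.21), while LMNA stood at 1.21, LMNB2 at 1.54 and LBR at 2.19 on the log2 scale, all still called.

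LEMD2 and LEMD3 did not pass the test between the lines. LEMD2 read 67.2 to 83.7 CPM in EnzaR and 66.8 to 70.8 CPM in LNCaP (log2 fold change of siNC against control -0.08, standard error 0.13, edgeR adjusted p = 0.596), and LEMD3 read 10.9 to 15.04 and 11.6 to 15.5 CPM (0.03, standard error 0.21, edgeR adjusted p = 0.913). Their libraries overlapped between the lines, as did those of BANF1. Under the GC and length correction both passed, and LEMD2 was higher (0.345, edgeR adjusted p = 0.0167) and LEMD3 lower (-0.50, edgeR adjusted p = 0.0319) in EnzaR.

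The mixture of lamin transcripts differed between the lines. The ratio of LMNA to LMNB1, both in FPKM, was 1.03, 1.23, 1.37 and 1.249 in the siNC and siYAP1 libraries of EnzaR, and 3.31, 3.10, 3.64 and 2.91 in LNCaP control, EV-siNC, EV-siYAP1 and EV-siCII. The lines did not overlap, and every LNCaP ratio was above every EnzaR ratio. FPKM carries no GC correction: with the GC and length correction the log2 fold changes of siNC against control were 1.21 for LMNA and 2.14 for LMNB1, nearer each other than the uncorrected 0.50 and 2.06. LMNB1 made up 26.6% to 32.0% of the summed lamin FPKM in EnzaR and 14.0% to 16.3% in LNCaP. LMNA made up 32.9% to 36.6% and 47.5% to 50.9%, and the share of LMNB2 overlapped between the lines (35.1% to 38.1% against 35.06% to 37.3%). The summed lamin level was 170 to 183 FPKM in EnzaR and 87.6 to 90.2 FPKM in LNCaP. In the LEM family TMPO made up 6.89% to 10.2% of the summed FPKM in EnzaR and 1.065% to 1.75% in LNCaP, while EMD made up most of it in both (76.8% to 81.6% and 87.9% to 89.8%). Per length, EMD and BANF1 led in LNCaP (119 and 106 FPKM over the 4 libraries), and LBR and TMPO, at 2.42 and 1.895 FPKM, were the lowest.

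**Figure D3:**
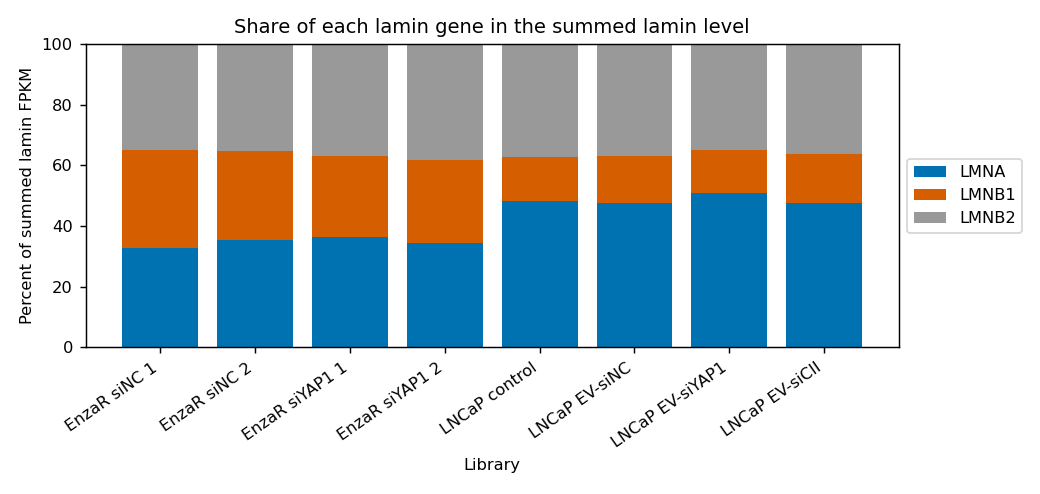
Share of LMNA, LMNB1 and LMNB2 in the summed lamin FPKM (percent) of each library, as stacked bars. In EnzaR, LMNB1 is 26.6% to 32.0% of the sum, and in LNCaP 14.0% to 16.3%.

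In LNCaP cells given EVs, 1, 0 and 1 of the 10 members were past the fold used in the 3 comparisons below, near the shares of all genes given with each. Each comparison sets 1 library against another, so there is no replicate check and no test; a gene is counted when the larger value is more than 5 to 4 times the smaller, among 10643 genes with a mean of 5 CPM or more. The comparisons share the EV-siNC library. Replicate libraries of EnzaR give a measure of this fold between like samples: 11.5% of genes were past it between the siNC replicates and 12.3% between the siYAP1 replicates. Among members, LBR was past it between the siNC replicates (112 and 89.3 CPM) and LEMD3 between the siYAP1 replicates (10.9 and 14.7 CPM).

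With EV-siNC against control, TMPO was the member past that fold, where 20.0% of genes were past it, 15.5% higher and 4.46% lower. TMPO went from 11.97 to 16.8 CPM, a log2 ratio of 0.48 (95% counting interval 0.23 to 0.74), and after the GC and length correction its log2 ratio was 0.18. Beside it the summed proliferation genes went from 217 to 185 CPM. BANF1 went from 182 to 157 CPM, a log2 ratio of -0.21 (-0.29 to -0.14), and the other 8 members lay between -0.13 and 0.17. BANF1, LMNB2 and LEMD2 were higher in control than in all 3 EV libraries, where 36.7% of genes were, and TMPO and LBR were lower in control than in all 3, where 33.2% were.

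With EV-siYAP1 against EV-siNC, 0 of the 10 members were past that fold, where 10.0% of genes were, 5.31% higher and 4.72% lower. BANF1 read 159 and 157 CPM, a log2 ratio of 0.02 (95% counting interval -0.06 to 0.09), beside the 1.03 of the siRNA-treated EnzaR cells; the difference between these effects was not tested. EMD and SUN2 had the highest log2 ratios, both 0.22 (0.16 to 0.28 for EMD and 0.15 to 0.29 for SUN2), and LEMD3 the lowest at -0.30 (-0.56 to -0.05). The intervals of these 3 exclude 0 for counting error, as does that of LMNA (0.13, 0.08 to 0.19). Between EnzaR replicates of siNC and siYAP1 the log2 ratios were 0.13 and -0.17 for EMD, -0.08 and 0.10 for SUN2, and -0.19 and 0.42 for LEMD3. With EV-siCII against EV-siNC, LEMD3 was the member past the fold, at 11.6 against 15.5 CPM (log2 ratio -0.41, -0.67 to -0.15), where 7.57% of genes were past it, 4.30% lower and 3.27% higher. BANF1 read 169 against 157 CPM (log2 ratio 0.11, 0.04 to 0.18), and the other 8 lay between -0.01 and 0.12.

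**Figure D4:**
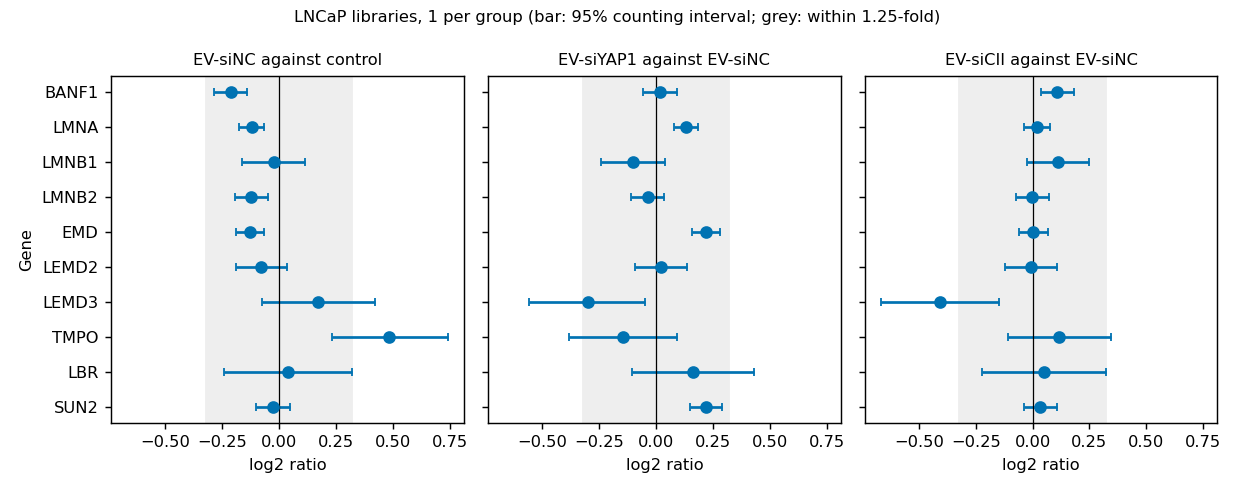
Log2 ratio of each envelope gene between pairs of LNCaP libraries, with its 95% counting interval (bar); the grey band is a ratio within 5 to 4 either way. TMPO in the first panel (0.48) and LEMD3 in the third panel (-0.41) lie outside the band.

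The rest of the envelope machinery was described through 7 further lists of 80 genes, of which 77 were tested in EnzaR. With YAP1 siRNA 5 of them were higher and 8 lower, where 5.83% and 6.22% of all genes were, with a median log2 fold change of -0.09. Among nucleoporins, 1 of 31 rose and 5 fell: AAAS rose by 0.36 on the log2 scale, and AHCTF1, which seeds pores on chromatin and is also known as ELYS, fell by 0.61 (57.6 ± 2.61 to 38.4 ± 0.07 CPM, SD, n = 2 each, edgeR adjusted p = 0.0029). RANBP2, NUP160, NUP58 and TPR, parts of the pore's filaments, scaffold, channel and basket, fell by 0.60, 0.48, 0.47 and 0.43 on the log2 scale (edgeR adjusted p between 0.0131 and 0.0374). TPR read 73.3 and 105 CPM in the siNC libraries, and its log2 fold change ran from -0.68 to -0.05 over the alternative fits. SUN1, the paralogue of SUN2, fell by 0.35 (edgeR adjusted p = 0.0361), and over those fits ran from -0.46 to -0.21. ZMPSTE24, the protease that matures prelamin A, fell by 0.53, from 59.6 ± 12.4 to 42.1 ± 1.70 CPM (SD, n = 2 each, edgeR adjusted p = 0.0148), and CBX3, a heterochromatin protein that LBR binds, by 0.37 (edgeR adjusted p = 0.03). The membrane-sealing genes CHMP2A and VPS4A rose by 0.41 and 0.36, CTDNEP1, a nuclear membrane phosphatase, by 0.37, and PPP4C, a phosphatase known to act on BAF, by 0.34 (edgeR adjusted p between 0.014 and 0.0422). Of 4 tested genes of cytosolic DNA sensing, the exonuclease gene TREX1 rose by 0.37 (edgeR adjusted p = 0.0247). TBK1 had a log2 fold change of -0.49 without passing (edgeR adjusted p = 0.0911), and STING1 (-0.13) and IRF3 (0.13) did not pass either. CGAS and IFI16, with 0 to 2 counts per library, were not tested. Of the 12 proliferation genes, CCNA2 and BUB1 fell by 0.42 and 0.59 (edgeR adjusted p = 0.0276 and 0.0247).

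Leaving out 1 library changed these counts. Without siYAP1 replicate 1 the counts were 0 higher and 0 lower, without siNC replicate 1 they were 0 and 8, without siNC replicate 2 they were 2 and 5, and without siYAP1 replicate 2 they were 6 and 3. After the GC and length correction 2 were higher and 0 lower, with library totals alone 1 was higher and 17 lower, and with the replicate block 1 was higher and 6 lower. Without siYAP1 replicate 1 the calls of TREX1, CCNA2 and BUB1 were lost as well (edgeR adjusted p = 0.247, 0.219 and 0.323). So was the TREX1 call without siNC replicate 1, with library totals alone (edgeR adjusted p = 0.0881) and with the replicate block (edgeR adjusted p = 0.0536), the BUB1 call without siNC replicate 2, the CCNA2 call with any 1 of the 4 libraries left out or all 8 libraries in the fit (edgeR adjusted p = 0.0505), and all 3 after the GC and length correction.

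Between the lines, 43 of 78 list genes were higher in EnzaR siNC and 8 lower, where 29.8% and 28.6% of all genes were. Their median log2 fold change was 0.53, beside -0.002 over all genes. Nucleoporins had 26 of 31 higher and 0 lower (median 1.26), among them NDC1, a pore membrane protein, at 2.64 (edgeR adjusted p = 2.69e-13) and NUP35 at 2.53 (edgeR adjusted p = 8.34e-07). VRK1, the kinase that releases BAF from chromatin, stood at 19.4 ± 4.54 CPM in EnzaR siNC (SD, n = 2) and 1.29 CPM in LNCaP control, a log2 fold change of 3.90 (edgeR adjusted p = 2.21e-10). NEMP1, an inner membrane protein, was higher by 2.24 (edgeR adjusted p = 2.36e-09), and of the lamin-processing enzymes ICMT was higher by 1.15 (edgeR adjusted p = 1.52e-08) and ZMPSTE24 by 1.22 (edgeR adjusted p = 7.45e-07). CBX3 was higher by 1.64 (edgeR adjusted p = 3.12e-10). Not every list leaned this way. The membrane-sealing list had 3 of 11 higher and 4 lower (median -0.16), and the list of SUN1, nesprins and torsins had 2 of 9 higher and 2 lower. Among the 8 lower genes were CHMP7 at -0.79 (edgeR adjusted p = 5.48e-06) and PPP2R1A at -0.62 (edgeR adjusted p = 3.34e-05). The GC and length correction ended the ZMPSTE24 call (0.20, edgeR adjusted p = 0.315) and lowered the log2 fold changes of NDC1 to 1.85, NUP35 to 1.53, VRK1 to 2.96, NEMP1 to 1.51 and CBX3 to 0.73, all still called. SUN1, at 126 ± 12.9 CPM in EnzaR siNC (SD, n = 2) and 116 CPM in LNCaP control, did not pass (0.105, edgeR adjusted p = 0.508). After the GC and length correction SUN1 was higher in EnzaR siNC (0.48, edgeR adjusted p = 4.14e-04). The proliferation genes named above moved with these lists as well, and their part was not tested.

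In LNCaP with EV-siNC against control, 12 of 69 list genes were past the 5 to 4 ratio higher and 1 lower, where 15.5% and 4.46% of all genes were. The largest ratios were those of the nucleoporins NUP54 (log2 ratio 0.77, 95% counting interval 0.46 to 1.10), NUP88 (0.57), TPR (0.56) and AHCTF1 (0.51), and the inner membrane gene NRM was the lower one (-0.60, -0.84 to -0.38). After the GC and length correction 2 were higher and 2 lower. With EV-siYAP1 against EV-siNC, NRM (0.37) and SPAST (0.38), whose product severs microtubules at the sealing envelope, were the 2 of 69 past the fold, both higher, where 5.31% of all genes were. SPAST lay near the floor of 5 CPM, at 7.21 against 5.52 CPM (95% counting interval 0.006 to 0.768). With EV-siCII against EV-siNC 3 were higher and 1 lower, where 3.27% and 4.30% of all genes were. Ratios of NRM in all 3 comparisons use the EV-siNC library, in which it read 13.8 CPM.

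The genes whose level followed BANF1 most closely over the 8 libraries (Pearson r of log2 CPM among 10874 genes, as a description) were STOML1 (r = 0.987), FPGS (0.982), STK32C (0.98), TSR3 (0.978) and BOD1 (0.977). Their log2 fold changes with YAP1 siRNA in EnzaR were 0.42, 0.36, 0.49, 0.50 and 0.85; they were picked on libraries that include this contrast, so these values describe the choice. The libraries share 2 lines and 1 siRNA contrast, and the points are not independent. FPGS, for example, read 175 and 190 CPM with siNC, 252 and 227 CPM with siYAP1 and 196 to 211 CPM in LNCaP, the same order of groups as BANF1. LEMD2 was the member most like BANF1, at r = 0.925 and rank 63, and EIF1AD was at r = 0.831 and rank 248. The other members ranged from 0.343 for LMNA down to -0.463 for LEMD3.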

How the data were processed

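RNA was measured by sequencing in 8 libraries; the labels give the groups. The authors deposited 1 table of read counts and FPKM per gene, per the file headers, with hg19 positions. The submitters' processing notes name HISAT2 2.0.1, DESeq2, HTSeq 0.6.1 and cutadapt 1.9.1, on hg19 (GRCh37), without roles; the annotation release, strand setting and filters were not given in the sources used here. The deposited FPKM values follow from the counts, exonic length and total count to within 0.005 and were used only to compare genes per length. Of 57905 genes, 51996 identifiers matched the names table. The 10 members and the lists were chosen with earlier results of these data known.

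From the counts, edgeR 4.0.16 (filterByExpr, TMM, robust quasi-likelihood fit) compared EnzaR siYAP1 with siNC (4 libraries) and EnzaR siNC with LNCaP control (group means over all 8 libraries, the lone control assumed to vary like the EnzaR groups), with Benjamini-Hochberg adjustment over all genes tested and a threshold of 0.05. LNCaP pairs, 1 library each, got log2 ratios of TMM-scaled CPM with a prior count of 2, exact 95% binomial intervals for counting error, a floor of 5 CPM over the 4 LNCaP libraries and a 1.25-fold threshold. Depth is given as total counts; 3 counts set the floor of detection. Total counts were 16682669 to 18248939.

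Alternatives were DESeq2 1.42.0, limma-voom (limma 3.58.1), DESeq2 size factors, library totals only, no filter, other sets of libraries, a replicate block, a GC and length correction per library (mgcv 1.9.3; 97.3% of genes tested had both values), leaving out each EnzaR library, and other floors, folds and prior counts. Scripts were tested on simulated data. Genes named were YAP1, the 10 members, genes within 25 kb of BANF1, member pseudogenes, the 5 genes most correlated with BANF1, list genes with an adjusted p under 0.05 in EnzaR (up to 6 a list) or past 1.25-fold in LNCaP (up to 4 a list), and proliferation genes where they moved with a member; list genes of the line comparison were chosen after their values were seen. Promoters came from RefSeq (GRCh38.p14), where all 10 members have a window; coordinates of the table (hg19) and of RefSeq were not mixed.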

Additional observations from a re-analysis of the deposited data

How the results depend on the processing

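BANF1 was picked because it rose in EnzaR siYAP1 against siNC, so its direction in refits of these libraries is no test. It kept that direction under every alternative run, with log2 fold changes from 0.854 to 1.191. The low end came from leaving out siYAP1 replicate 1, in which BANF1 read 293 CPM. The high end came from leaving out siYAP1 replicate 2, in which BANF1 read 235 CPM. The labels do not say whether same-numbered EnzaR libraries were made together. Deviations of same-numbered libraries correlated at -0.079, which cannot settle this with 2 libraries per group. With the replicate block BANF1 stood at 1.02, and with the block and the GC and length correction at 0.868. Under the block 1 of the 77 other envelope genes was higher, and with the block and that correction 2 were higher and 0 lower. No paired analysis was possible between the lines because LNCaP control is 1 library. None of the other 9 members was called in EnzaR under any of these alternatives. After the GC and length correction LEMD3 (0.042), TMPO (0.177) and LBR (0.207) changed sign, and with the block as well (0.037, 0.183 and 0.221); so did LBR without siNC replicate 1 (0.083; lowest -0.238, without siNC replicate 2) and LEMD3 without siYAP1 replicate 1 (0.021; lowest -0.388, without siYAP1 replicate 2).

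Over all genes in EnzaR the main counts were 872 higher and 930 lower. They were 895 and 576 with DESeq2, 291 and 1416 with library totals only, 564 and 845 with the block, 471 and 233 after the GC and length correction, and 453 and 274 with both; leaving out 1 library gave 15 to 940 higher and 11 to 829 lower. Library totals moved the median of all genes to -0.13 from -0.03. The counts of other envelope genes were 1 and 17 with library totals and 2 and 0 after the GC and length correction; leaving out 1 library gave 0 to 6 higher and 0 to 8 lower.

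Between the lines the members' calls were 5 higher and 2 lower in the fit reported and with any 1 EnzaR library left out, and 6 higher and 1 lower after the GC and length correction. LEMD3 changed sign with DESeq2 (-0.012), DESeq2 size factors (-0.012), that correction (-0.501) and without siNC replicate 1 (-0.071, against 0.128 without siNC replicate 2), LEMD2 (0.345) and SUN2 (0.159) with that correction, and SUN1 without siNC replicate 1 (-0.004, against 0.209 without siNC replicate 2).

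In LNCaP, 0 members were past the fold higher for EV-siNC at 1.5-fold or after the GC and length correction, and 0 lower for EV-siCII at 1.5-fold. Other envelope genes for EV-siNC against control were 1 higher at 1.5-fold, 3 lower at a floor of 1 CPM, and 2 higher and 2 lower after the correction. For EV-siYAP1 against EV-siNC 1 was lower at a floor of 1 CPM, 1 higher at a floor of 10 CPM and 0 higher at 1.5-fold. For EV-siCII against EV-siNC 5 were higher at a floor of 1 CPM, 0 higher and 0 lower at 1.5-fold, and 0 lower with DESeq2 size factors, a floor of 10 CPM or the correction. Floors and folds change how many genes can be counted; for the others the cause was not tested.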
